A study of Mus musculus with 2 samples.

Results

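IAPLTR2_Mm long terminal repeats (LTRs) that stand without a partner were examined in 2 mouse cell lines. An LTR was kept when its name gave the IAPLTR2_Mm subfamily and when it was in no pair. A pair was a couple of consecutive listed LTRs of the same subfamily and strand with 1000 to 8000 bp between them. The rule kept 961 of the 1391 IAPLTR2_Mm loci, or 20% of the 4799 IAP LTRs listed. It used names and positions but no methylation value. The other 430 IAPLTR2_Mm loci formed pairs, with 215 candidate 5′ and 215 candidate 3′ LTRs by strand.

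Intracisternal A particles (IAPs) are endogenous retroviruses of the mouse. A full copy carries an LTR at each end, and the LTR holds the promoter and the polyadenylation signal. Recombination between both LTRs of a copy can leave a solo LTR, so a listed LTR without a partner may be a solo LTR or an end of a copy whose other end was not listed; the files do not tell these apart. IAP LTRs are known as targets of dense CpG methylation, which silences their transcription, and some single copies vary in methylation and act on nearby genes.

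AB2.2 cells are embryonic stem (ES) cells of mouse strain 129. Neuro2A cells come from a brain neuroblastoma, and their strain is given as A albino. Neither line carried a treatment or an engineered allele in the labels, and each is 1 cultured line with 1 library of bisulfite-treated genomic DNA enriched by PCR for IAP LTR regions. With no replicate there is no p-value here, and SDs and exact (Clopper-Pearson) 95% intervals run over loci, treat loci as independent and cover no variation between cultures. Cell type and strain differ together between the lines and cannot be told apart, and whether each copy is present in both lines was not tested. The deposited level is the only value per locus and library, and the read depth behind it is unknown. A level between 0 and 100% can mix methylated and unmethylated cells, alleles or CpGs, which the value does not separate. No gene is measured, so the labelled cell types could not be checked against marker genes.

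Unpaired IAPLTR2_Mm LTRs were mostly methylated in both lines, with a far wider spread in Neuro2A cells. In ES cells the levels ran from 23.5 to 97.6% with a median of 82.1% and an interquartile range of 75.2 to 87.1%. In Neuro2A cells they ran from 3.9 to 99.1% with a median of 74.6% and an interquartile range of 59.4 to 85.1%. ES levels had an SD over loci of 9.53 and Neuro2A levels one of 19.3, and the Neuro2A SD was the larger on all 20 chromosomes compared (the 19 autosomes and the X). The distributions overlapped over most of their range. Over all 4799 loci the medians were 86.7% in ES cells and 80.6% in Neuro2A cells, with SDs of 8.76 and 16.8.

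Neuro2A cells extended the range at both ends. No unpaired IAPLTR2_Mm locus was under 20% in ES cells, where 0.0417% of all loci were. In Neuro2A cells 15 were (1.56%, interval 0.876 to 2.56), against 0.979% of all loci. Levels under 50% were found at 11 loci in ES cells (1.14%, against 0.604% of all loci) and at 158 loci in Neuro2A cells (16.4%, against 8.77%). At the upper end, 4 loci stood at 95% or above in ES cells (0.416%, against 1.08%) and 62 in Neuro2A cells (6.45%, against 4.88%). Both tails of the Neuro2A distribution were thus fuller than those of the ES distribution.

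At 80% or above, a level called high here, were 573 loci in ES cells (59.6%, interval 56.4 to 62.7), where the share over all loci was 76.9%. In Neuro2A cells 346 were high (36.0%, interval 33.0 to 39.1), where the share over all loci was 51.4%. Levels from 20% to under 80% are called intermediate and those under 20% low. In both lines 258 loci were high (26.8%, against 47.1% of all loci). A further 313 were high in ES and intermediate in Neuro2A cells (32.6%, against 29.3%), and 88 were intermediate in ES and high in Neuro2A cells (9.16%, against 4.23%). Another 287 were intermediate in both lines (29.9%, against 18.3%) and 13 were intermediate in ES and low in Neuro2A cells (1.35%, against 0.521%). A high level in ES with a low level in Neuro2A cells was found at 2 loci (0.208%, against 0.438%).

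Taken locus by locus, ES cells had the higher level at 720 loci (74.9%, interval 72.1 to 77.6) and Neuro2A cells at 240 (25%), with 1 locus equal. Over all loci these shares were 81.4 and 18.4%. The median ES minus Neuro2A difference was 7.7 percentage points, with an interquartile range of 0.0 to 18.7, against 6.1 points over all loci. At 223 loci the ES level was higher by 20 points or more (23.2%, interval 20.6 to 26.0), where 14.9% of all loci passed that limit. At 40 loci the Neuro2A level was higher by 20 points or more (4.16%, interval 2.99 to 5.63), where 1.58% of all loci did. These 40 made up 52.6% of the 76 loci of any subfamily with such an excess in Neuro2A cells, and the 223 made up 31.1% of the 717 loci with the opposite excess. With a limit of 10 points the counts were 408 (42.5%, against 32.3% of all loci) and 97 (10.1%, against 5.73%). With a limit of 40 points they were 67 (6.97%, against 4.23%) and 6 (0.624%, against 0.292%). With each library centred on its median over all loci, a shift of 6.1 points, the ES excess of 20 points or more was found at 167 loci (17.4%, against 10.4% of all loci) and the Neuro2A excess at 63 (6.56%, against 3.19%). Each share exceeded that of all loci, in both directions, with and without centring. Among the other IAPLTR2 loci (paired IAPLTR2_Mm, IAPLTR2a and IAPLTR2b), 379 of 1678 were higher in ES cells by 20 points or more (22.6%) and 32 were higher in Neuro2A cells (1.91%). That pool holds the 430 paired loci. Of these, 120 had the ES excess (27.9%), a higher share than the 23.2% of unpaired IAPLTR2_Mm loci, and 3 had the Neuro2A excess (0.698%). For the Neuro2A excess the unpaired classes were nearer. It was found at 14 of 432 IAPLTR2a loci (3.24%, interval 1.78 to 5.38) and 14 of 424 IAPLTR2b loci (3.30%, interval 1.82 to 5.48). These intervals overlap that of unpaired IAPLTR2_Mm. With a limit of 10 points, unpaired IAPLTR2a had the higher share (16.7%, against 10.1%) and unpaired IAPLTR2b 10.8%. An excess in Neuro2A cells was thus shared by unpaired loci of all 3 IAPLTR2 subfamilies.

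**Figure D1:**
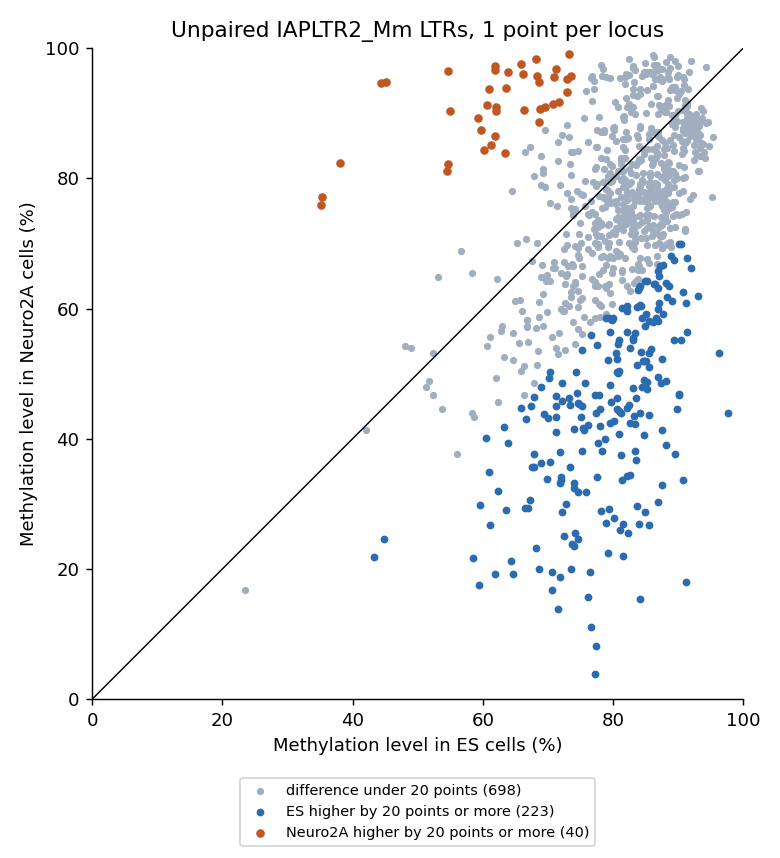
Methylation level of each unpaired IAPLTR2_Mm LTR in ES cells (x axis, %) against Neuro2A cells (y axis, %), 1 point per locus, with the line of equal levels. The 223 loci higher in ES cells by 20 points or more spread down to 3.9% in Neuro2A cells, and the 40 loci with the opposite excess lie at 73.5% or less in ES cells.

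The loci past the limit differed in their starting level. The 40 loci higher in Neuro2A cells had ES levels of 35.1 to 73.5% (median 62.75%) and Neuro2A levels of 75.9 to 99.1% (median 91.6%). The 223 loci higher in ES cells had ES levels of 43.3 to 97.6% (median 80.6%) and Neuro2A levels of 3.9 to 69.9% (median 44.8%). A locus can exceed its ES level by 20 points only from 80% or less, so the ES levels of the first list are bounded by the limit itself. Just inside the limit, differences were 20.1 to 20.3 points at the nearest 3 loci higher in ES cells. Just outside it they were 19.8 to 19.9 points. On the Neuro2A side they were -20 to -20.4 points just inside and -18.8 to -19.2 points just outside.

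Across the 961 loci the level in one line went with the level in the other (Spearman's rho 0.394, Pearson's r 0.36), as a description over loci that share their libraries. Among the 127 loci under 70% in ES cells, the Neuro2A median was 57.4% (interquartile range 44.25 to 82.25%). It was 66.9% (50.3 to 77.6%) for the 261 loci at 70% to under 80% in ES cells. For the 454 loci at 80% to under 90% it was 76.4% (66.7 to 84.5%), and for the 119 loci at 90% or above 87.0% (81.9 to 88.9%). The most methylated loci of ES cells thus had the narrowest Neuro2A range, with an SD of 12.9 against 23.1 in the lowest group.

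The 6 largest excesses of ES over Neuro2A cells lay on 6 chromosomes, and the genome build of all positions is mm9. A 473 bp LTR on chromosome 5 (61943117 to 61943589, minus strand) had 77.3% in ES cells and 3.9% in Neuro2A cells, the lowest Neuro2A level of the 961. Its nearest listed LTR, an IAPLTR2_Mm copy 44346 bp away on the other strand, had 78.0% and 44.6%. An LTR on the X (17352300 to 17352800, minus strand) had 91.2% and 18.0%, while an IAPLTR2a copy 200584 bp away had 87.6% and 86.8%. An LTR on chromosome 2 (95828635 to 95829089, plus strand) had 77.4% and 8.1%. In ES cells these 3 lay within or above the interquartile range, and their Neuro2A levels did not exceed 18.0%.

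The next were an LTR on chromosome 3 (112268720 to 112269161, minus strand) with 84.1% in ES and 15.4% in Neuro2A cells, and an LTR on chromosome 12 (114878164 to 114878584, plus strand) with 76.6% and 11.1%. On chromosome 4 (31301797 to 31302276, plus strand) the levels were 76.1% and 15.7%. The nearest listed neighbours of these 3, at 120089, 443987 and 246782 bp, had Neuro2A levels of 74.4, 88.8 and 65.8%. These sites were picked as extremes, and only 0.979% of all loci were under 20% in Neuro2A cells. The neighbours' levels therefore cannot tell whether near LTRs tend to be alike. The remaining locus among the 5 lowest in Neuro2A cells lay on chromosome 1 (17783051 to 17783544, minus strand), with 71.6% in ES and 13.8% in Neuro2A cells.

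The opposite excess was largest at an LTR on chromosome 7 (6037727 to 6038171, minus strand), with 44.4% in ES cells and 94.7% in Neuro2A cells. An LTR on chromosome 12 (103873153 to 103873626, plus strand) had 45.2% and 94.8%. An LTR on the X (160652527 to 160652971, plus strand) had 54.7% and 96.5%. All 3 were above the third quartile of Neuro2A cells and below the first quartile of ES cells.

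Of the 5 lowest loci of ES cells, 3 also belonged to the 6 with the largest excess in Neuro2A cells. On chromosome 5 (115149485 to 115149936, minus strand) an LTR had 38.0% in ES and 82.3% in Neuro2A cells. On chromosome 4 (44269674 to 44270095, minus strand) the levels of another were 35.3% and 77.2%. The LTR on chromosome 1 (135896026 to 135896444, plus strand) had 35.1% and 75.9%. The other 2 were low or intermediate in both lines: an LTR on chromosome 6 (37414146 to 37414607, plus strand) with 23.5% and 16.8%, and an LTR on chromosome 14 (85404679 to 85405101, minus strand) with 42.0% and 41.3%. Low ES levels thus came with high, low and intermediate Neuro2A levels.

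The locus on chromosome 6 had the lowest mean of both lines, 20.15%. LTRs on chromosome 5 followed, at 6261878 to 6262314 (plus strand) with 43.3% in ES and 21.9% in Neuro2A cells, and at 109384526 to 109384953 (minus strand) with 44.8% and 24.6%. The highest means belonged to a 592 bp LTR on the X (161379834 to 161380425, plus strand; 94.3% and 97.1%) and to LTRs on chromosome 10 at 25237635 to 25238053 (minus strand; 92.0% and 98.1%) and at 43596893 to 43597346 (plus strand; 91.7% and 96.4%). All 3 of these were higher in Neuro2A cells, with ES minus Neuro2A differences of -2.8 to -6.1 points. The nearest listed locus of the X LTR was the X locus named above with the Neuro2A excess, 726862 bp away, at 54.7% in ES cells.

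Compared with the other classes of LTR, unpaired IAPLTR2_Mm loci combined the low median of the IAPLTR2 group with a wide Neuro2A spread. Unpaired IAPLTR1_Mm loci had medians of 91.9% in ES and 86.8% in Neuro2A cells, with a Neuro2A SD of 5.18 over 550 loci. Of these, 3 (0.545%) were higher in ES cells by 20 points or more. Unpaired IAPLTR1a_Mm loci had medians of 89.8% and 84.95% and a Neuro2A SD of 11.1 over 606 loci, with 16 (2.64%) past the limit. Unpaired IAPLTR2a (432 loci) and IAPLTR2b (424 loci) were closer, with Neuro2A medians of 76.5 and 71.9%, SDs of 19.1 and 17.6 and shares of 20.1 and 19.6% past the limit. None of these gaps between classes has a test, since the libraries are not replicated.

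Within the subfamily, the Neuro2A medians of unpaired loci, candidate 5′ and candidate 3′ LTRs were 74.6, 73.3 and 70.7%. Their Neuro2A levels thus had similar centres. The Neuro2A SD of 19.3 at unpaired loci lay near that of candidate 5′ LTRs (20) and above that of candidate 3′ LTRs (10.5). The first quartile was 59.4% at unpaired loci, 51.4% at candidate 5′ and 62.35% at candidate 3′ LTRs. Shares under 50% in Neuro2A cells were 16.4, 22.8 and 5.58% in the same order. No candidate 3′ LTR was above 88.7% in Neuro2A cells, a level that lies above the third quartile of unpaired loci (85.1%). In ES cells the medians were 82.1, 84.7 and 82.2%, and unpaired loci had the widest SD (9.53, against 6.86 and 6.88). An excess of 20 points or more in Neuro2A cells was found at 3 of 215 candidate 5′ LTRs (1.40%) and at no candidate 3′ LTR, beside the 40 of 961 unpaired loci. The ES excess was found at 81 candidate 5′ LTRs (37.7%) and 39 candidate 3′ LTRs (18.1%), with the 23.2% of unpaired loci between them. The lowest 5% of unpaired loci in ES cells lay at or under 62.3%, against 70.1 and 68.1% for candidate 5′ and 3′ LTRs. Unpaired IAPLTR2a and IAPLTR2b had like lower ends, at 62.7 and 64.7%, with ES SDs of 9.11 and 9.55.

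**Figure D2:**
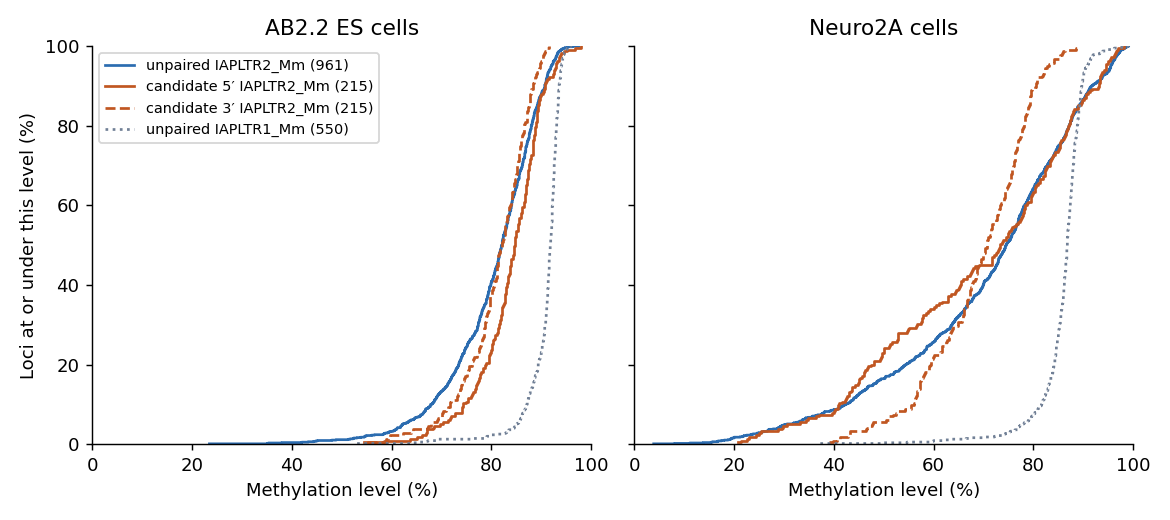
Share of loci (y axis, %) at or under each methylation level (x axis, %) in ES cells (left) and Neuro2A cells (right) for unpaired IAPLTR2_Mm LTRs, both members of IAPLTR2_Mm pairs and unpaired IAPLTR1_Mm LTRs. In Neuro2A cells the unpaired IAPLTR2_Mm curve (median 74.6%) runs beside the candidate 5′ curve (73.3%) at high levels, and the candidate 3′ curve ends at 88.7%. The first quartile in Neuro2A cells is 59.4% for the unpaired and 51.4% for the candidate 5′ curve.

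Few couples lay near the limits of the pair rule. The IAPLTR2_Mm pair with the widest accepted gap, 7498 bp on chromosome 16, had 72.7 and 80.1% for its ES levels and 57.6 and 69.9% for its Neuro2A levels. The closest couple left out at that end, 8299 bp apart on chromosome 11 (6691024 to 6691492 and 6699792 to 6700270), had ES levels of 83.7 and 81.4% and Neuro2A levels of 60.3 and 65.9%. At the short end, the narrowest accepted gap was 1189 bp on the X, where the couple had 90.3 and 86.9% in ES and 79.4 and 74.9% in Neuro2A cells. A couple touching at 0 bp on the X (89499944 to 89500000 and 89500001 to 89500407, both plus strand) stayed out. It comprises the shortest member, 57 bp long, and a 407 bp member, end to end. The short piece had 93.1% in ES and 86.2% in Neuro2A cells, and the longer one 93.2% and 81.2%. In all, 12 of the 961 loci had their nearest listed LTR on the same strand, of the same subfamily and within 10 kb.

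LTR length ran from 57 to 708 bp, with a median of 458 bp and an interquartile range of 432 to 482 bp. In ES cells the level hardly varied with length, with medians of 83.4% under 300 bp (15 loci), 81.4% from 300 to under 400 bp (29 loci), 81.8% from 400 to under 450 bp (349 loci), 82.75% from 450 to under 500 bp (428 loci) and 81.1% at 500 bp or more (140 loci). Neuro2A medians were 84.6, 71.2, 70.1, 76.9 and 74.0% in the same order. Here the class from 400 to under 450 bp is called shorter and that from 450 to under 500 bp longer. The Neuro2A median of the longer class thus stood 6.8 points above that of the shorter class. The interquartile ranges in Neuro2A cells, 54.0 to 82.4% and 65.8 to 86.5%, overlapped widely. The classes below 400 bp hold 44 loci in all, and their median Neuro2A level of 75.75% was close to the 74.6% of longer loci.

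The difference between the lines followed the same split. The ES level was higher by 20 points or more at 110 of 349 loci of the shorter class (31.5%, interval 26.7 to 36.7) and at 69 of 428 loci of the longer class (16.1%, interval 12.8 to 20). The share was 34 of 140 at 500 bp or more (24.3%, interval 17.4 to 32.2). Over all loci it was 14.9%, within the interval of the longer class and below those of the other classes given here. In bins of 10 bp the share was highest, among bins with at least 30 loci, at 420 to 429 bp with 38 of 95 loci (40%) and lowest at 470 to 479 bp with 11 of 115 (9.57%). The Neuro2A medians of these bins were 65.8 and 82.8%, and their ES medians 80.8 and 83.1%. Within the shorter class, the bin at 400 to 409 bp was closer to the longer class. It had the ES excess at 6 of 35 loci (17.1%) and a Neuro2A median of 79.1%. The rank correlation of length with the Neuro2A level over the 961 loci was weak (rho 0.084), as a description.

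**Figure D3:**
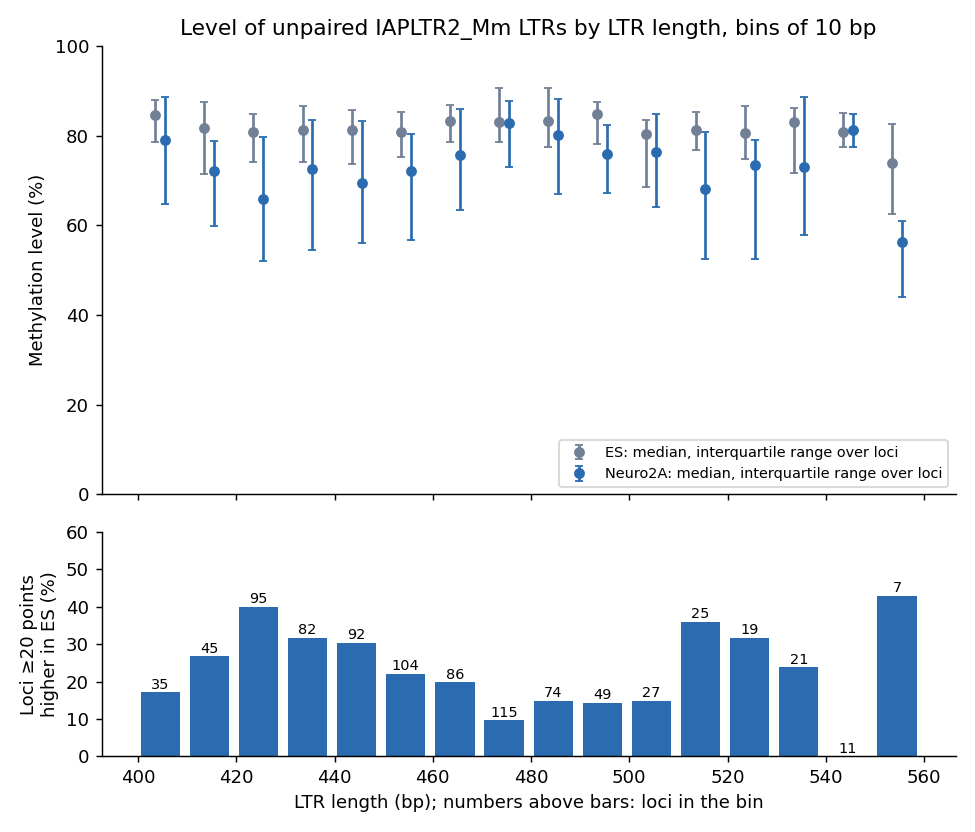
Methylation level by LTR length in bins of 10 bp from 400 to 559 bp, as the median and interquartile range over loci in ES and Neuro2A cells (top), and the share of loci higher in ES cells by 20 points or more with the number of loci above each bar (bottom). The Neuro2A median goes from 65.8% at 420 to 429 bp to 82.8% at 470 to 479 bp, while the ES medians of these bins are 80.8 and 83.1%. At 400 to 409 bp the Neuro2A median is 79.1%.

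The direction of the length split was the same on both strands and on most chromosomes, but not its size. Only the limit of 400 bp was planned as a length contrast. Strands and chromosomes divide the same loci and are no separate support for the split. The Neuro2A median of the longer class was above that of the shorter class by 7.2 points on the plus strand and by 6 points on the minus strand. Bounds from the 95% intervals of both medians ran from 2.2 to 14.3 points on the plus strand and from -0.8 to 11.9 on the minus strand, which includes 0. It was the higher on 16 of 20 chromosomes and the lower on 4, namely chromosomes 4, 9, 16 and 19. Of the 16, chromosomes 13, 14 and 17 differed by only 0.05, 0.3 and 0.35 points. In ES cells the longer class had the higher median on 13 chromosomes and the lower on 7. Among candidate 5′ LTRs the Neuro2A medians of the shorter and longer classes were 74.25 and 72.4% (82 and 90 loci). For candidate 3′ LTRs they were 71.55 and 71.8% (92 and 79 loci). The contrast between unpaired and paired loci in this split has no test.

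Among the shortest members were levels in the highest 5% of ES cells, which lay at or above 92.0%. The 57 bp piece on the X had 93.1% in ES cells. After the 57 bp piece on the X came an LTR of 218 bp on chromosome 7 (64395102 to 64395319, minus strand), with 92.9% in ES and 88.9% in Neuro2A cells. An LTR of 222 bp on the X (59007420 to 59007641, minus strand) had 84.0% and 74.2%. The longest, 708 bp on chromosome 6 (60847680 to 60848387, plus strand), had 79.6% and 56.4%. Levels of 76.8% and 91.9% were found at an LTR of 637 bp on chromosome 14 (79836285 to 79836921, minus strand). An LTR of 629 bp on chromosome 1 (51441756 to 51442384, plus strand) had 81.1% and 95.4%. The longest 3 thus went in different directions between the lines.

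Strand made little difference to the level. The 503 plus-strand loci had medians of 82.0% in ES and 74.4% in Neuro2A cells, and the 458 minus-strand loci had 82.2% and 74.6%. The ES level was higher by 20 points or more at 106 plus-strand loci (21.1%, interval 17.6 to 24.9) and at 117 minus-strand loci (25.5%, interval 21.6 to 29.8), and the intervals overlap. Levels under 50% in Neuro2A cells were found at 70 plus-strand (13.9%) and 88 minus-strand loci (19.2%). The excess in Neuro2A cells was evenly divided, with 21 plus-strand (4.17%) and 19 minus-strand loci (4.15%).

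Most members lay far from any other listed IAP LTR. The median distance to the nearest other listed locus was 183447 bp, with an interquartile range of 66099 to 430222 bp. Within 1 kb of another locus were 20 members, with medians of 85.0% in ES and 77.45% in Neuro2A cells. Some of these 20 are each other's nearest LTR, so they are not all separate sites. The 63 members at 1 to 10 kb had 84.2 and 72.4%, the 240 at 10 to 100 kb had 81.8 and 72.75%, the 575 at 100 kb to 1 Mb had 81.9 and 75.4%, and the 63 beyond 1 Mb had 81.8 and 78.6%. From 1 kb outward the Neuro2A median was thus higher at each further distance, while the ES median lay at 81.8 or 81.9% beyond 10 kb. The interquartile ranges of all 5 distance classes overlapped in each line, and Spearman's rho of the logarithm of distance was 0.072 with the Neuro2A level and -0.041 with the ES level.

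The share of loci higher in ES cells by 20 points or more ran from 35.0% (7 of 20, interval 15.4 to 59.2) within 1 kb to 21.0% (121 of 575, interval 17.8 to 24.6) at 100 kb to 1 Mb. It was 23.8% (15 of 63) at 1 to 10 kb, 27.1% (65 of 240) at 10 to 100 kb and 23.8% (15 of 63) beyond 1 Mb, so it did not follow distance in order. An excess of 20 points or more in Neuro2A cells was found at 0 of 20, 2 of 63 (3.17%), 7 of 240 (2.92%), 25 of 575 (4.35%) and 6 of 63 loci (9.52%) from the closest to the farthest class. With 63 loci in the farthest class, these shares are imprecise.

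**Figure D4:**
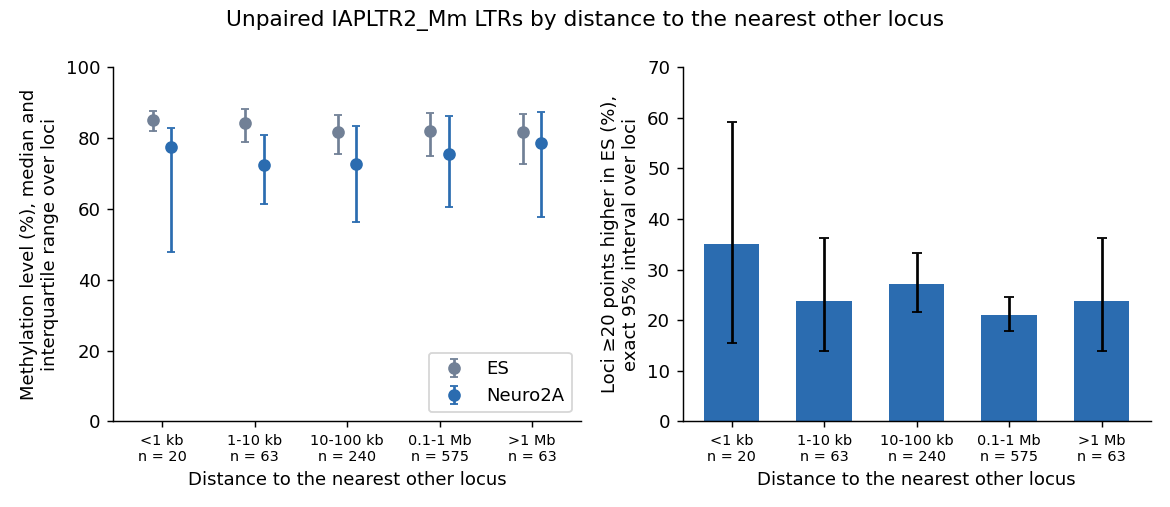
Unpaired IAPLTR2_Mm LTRs by distance to the nearest other listed LTR: median and interquartile range of the level in each line (left, %) and share of loci higher in ES cells by 20 points or more with exact 95% intervals over loci (right, %). The Neuro2A median goes from 72.4% at 1 to 10 kb to 78.6% beyond 1 Mb, and the intervals on the shares overlap.

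The closest members touched or overlapped another LTR. On chromosome 8 an LTR (77979718 to 77980188, minus strand) overlapped an IAPLTR2a copy of the other strand (77979436 to 77979751). Its levels were 82.2% in ES and 34.3% in Neuro2A cells, against 66.9 and 48.6% at the IAPLTR2a copy. On chromosome 3 a 275 bp LTR (47255258 to 47255532, plus strand) overlapped an IAPLTR2b piece of the other strand (47255531 to 47255650). It had 92.1% and 87.2%, against 72.0 and 34.2% at the piece next to it. The widest gap within these couples was that in Neuro2A cells on chromosome 3.

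The farthest 3 members differed among themselves. An LTR on chromosome 15 (103441031 to 103441505, plus strand) lay 4123215 bp from its nearest listed neighbour and had 92.2% in ES and 87.7% in Neuro2A cells. An LTR on chromosome 8 (35720227 to 35720653, minus strand) lay 4014505 bp away and had 86.4% and 83.0%. The largest distance, 4808964 bp, belonged to an LTR on unplaced Y sequence (56868742 to 56869166, minus strand) with 77.6% and 54.4%, a Neuro2A level below the first quartile and a difference of 23.2 points. On this sequence distances follow the joined contigs of the build.

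By chromosome, the X and chromosome 1 had the highest shares of loci with an ES excess. On chromosome 1, 28 of 77 loci (36.4%, interval 25.7 to 48.1) were higher in ES cells by 20 points or more, and on the X 31 of 90 (34.4%, interval 24.7 to 45.2). The paired IAPLTR2_Mm, IAPLTR2a and IAPLTR2b loci together had 21.6% on chromosome 1 (30 of 139), 27.2% on the X (43 of 158) and 22.6% over the genome (379 of 1678). Across 20 chromosomes, the unpaired IAPLTR2_Mm share was above that of these other IAPLTR2 loci on 12 and below it on 8. The lowest share, 2 of 19 loci on chromosome 19 (10.5%, interval 1.30 to 33.1), rests on the fewest loci.

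Length differed between the X and autosomes. The X had a median length of 443.5 bp, against 458 bp for autosomes. The shorter class held 40 of 90 loci on the X and 304 of 852 on autosomes. Within that class X loci had a Neuro2A median of 60.55% and autosomal loci one of 71.8%, and 17 of 40 loci (42.5%) against 91 of 304 (29.9%) had the ES excess. Within the longer class the medians were 73.0 and 76.9%, and 6 of 19 (31.6%) against 63 of 401 loci (15.7%) had it. At 500 bp or more, with 23 of 90 X loci and 111 of 852 autosomal loci, the medians were 72.9 and 73.4% and the ES excess was found at 6 of 23 (26.1%) and 28 of 111 loci (25.2%). The X median was lower in Neuro2A cells in the shorter and longer classes and within 1 point of autosomes at 500 bp or more. In the shorter class the interval on the share with the ES excess was 27.0 to 59.1 on the X and 24.8 to 35.4 on autosomes. In the longer class these were 12.6 to 56.6 and 12.3 to 19.6, so the intervals overlap in both classes. Over all loci the share was 14.9%. In ES cells the medians of the X and of autosomes were 81.35 and 82.2%. The part of length in the difference between X and autosomes was not tested beyond these classes.

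**Figure D5:**
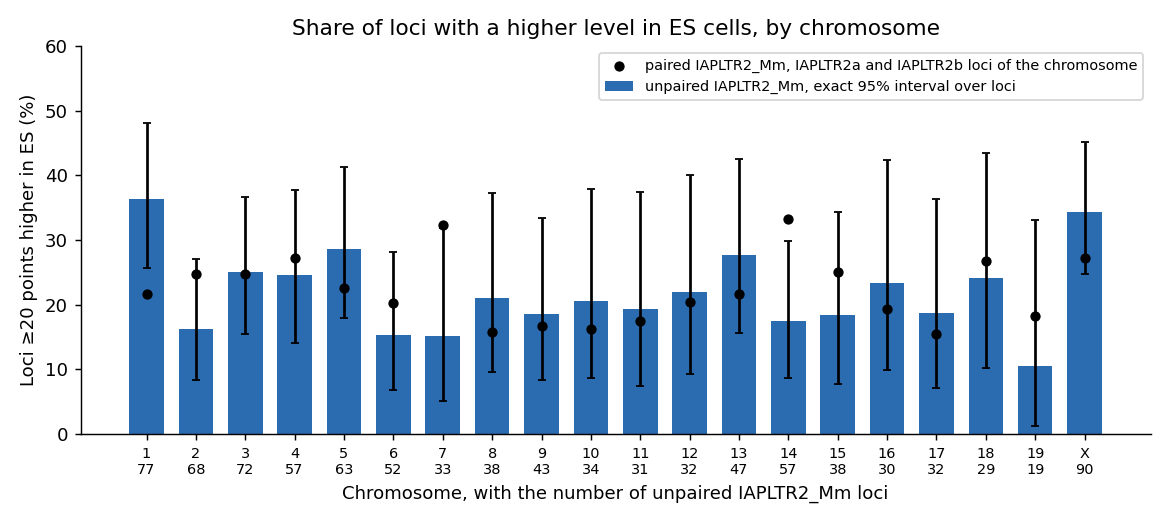
Share of unpaired IAPLTR2_Mm LTRs higher in ES cells by 20 points or more (bars, %, with exact 95% intervals over loci) for each chromosome, with the number of loci under it, and the same share for the paired IAPLTR2_Mm, IAPLTR2a and IAPLTR2b loci (points). Chromosome 1 (36.4%) and the X (34.4%) have the highest bars, and the intervals of most chromosomes overlap.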

How the data were processed

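Genomic DNA was prepared by bisulfite conversion and a PCR that enriches IAP LTR regions, per the labels' protocols. The authors deposited 1 score per LTR, which is the methylation level multiplied by 1000 per the file headers; it was divided by 10 to give percent. The build is mm9 per the file headers, and the submitters' processing notes list Bowtie2 without role or version. How methylation was called, how reads were filtered and how multi-mapping reads were handled is not given in the sources used here. Depth per locus is unknown, so no interval for counting error and no read-based test was possible.

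Loci were matched by name (4799 in each library; position columns disagreed with the name for 1 locus of the ES library, where the name was used) and written 1-based. Distances count the bases between a locus and the nearest other listed locus. Python 3.11.15, pandas 2.3.3, NumPy 2.4.6, SciPy 1.17.1 and Matplotlib 3.10.9 were used, and the scripts were tested on simulated levels. Named loci follow a rule on extremes of difference, level, mean, length and distance; further couples named at the gap limits and chromosomes named for their shares were chosen after their values were seen. The members, lists and class limits were chosen with earlier results of these data known. Alternatives covered difference limits, class limits, pair gaps, isolation, centring, means, autosomes, spacing, loci at 0, and length and distance limits. Gene annotation of mm9 and LTR sequences were not used here.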

Additional observations from a re-analysis of the deposited data

How the results depend on the processing

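Loci were matched between the lines, but with only 1 library of each line no analysis of paired or replicate libraries was possible. Over the alternatives, 106 values stayed within the interval over loci of the reported value and 19 moved outside it. In all 7 changed sign, 6 of them within that interval. The 106 include values that could not differ from the reported ones. No member was listed at 0, so leaving out such loci returned each reported value. Keeping only loci of 400 bp or more could not alter the contrast of the longer with the shorter class, which hold no shorter loci. The 106 are therefore not all tests of stability. Means in place of medians gave 80.3% in ES cells, 70.4% in Neuro2A cells and a difference of 9.93 points. Centring each library on its median gave a median difference of 1.6 points, with an ES excess of 20 points or more at 17.4% and a Neuro2A excess at 6.56% of loci. Limits of 10 and 40 points gave 42.5 and 6.97% higher in ES cells, and 10.1 and 0.624% higher in Neuro2A cells. Class limits of 10 and 90% gave 0.208% low in Neuro2A cells, 12.4% high in ES and 13.5% high in Neuro2A cells, and limits of 30 and 70% gave 4.79, 86.8 and 60.04%. Limits and centring shift these values by construction.

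Small contrasts in the Neuro2A level changed sign. Loci of 400 bp or more minus shorter ones went from -1.15 to 0.5 points without loci that have a neighbour within 10 kb, and to 5.35 points with a limit of 450 bp. Plus minus minus strand went from -0.2 to 1.89 points on means, 0.9 on autosomes and 0.35 with 1 locus per 100 kb. Loci within 10 kb of another minus the rest went from -2.25 to 0.00104 points on means. The contrast of 450 to under 500 with 400 to under 450 bp, 6.8 points, was 12.45 points on the X alone (40 and 19 loci, bounds -21.4 to 32.3). It was -1.85 points at the 5′ and 0.25 at the 3′ members of pairs, with these settings chosen after the data were seen. The cause of these changes was not tested. Pair gaps of 1000 to 6000 bp (965 loci) and 500 to 10000 bp (955 loci) changed no value beyond its interval, and no member was listed at 0. Loci without near neighbours gave no distance or paired contrast, and loci of 400 bp or more gave no contrast with loci under 400 bp. Unknown depth limits every single locus.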

Other observations

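Orientation of the nearest LTR went with the spread in Neuro2A cells. Of the 83 members with another listed LTR within 10 kb, 45 had it on the same strand and 38 on the opposite strand. The Neuro2A median was 73.3% (SD over loci 13.4) with a same-strand neighbour and 69.65% (SD 20) with an opposite-strand neighbour. An ES excess of 20 points or more was found at 7 of 45 (15.6%, exact interval over loci 6.49 to 29.5) and at 15 of 38 loci (39.5%, interval 24.0 to 56.6). Over all loci the share was 14.9%, close to that of the same-strand group. Within 1 kb, 14 of 20 members had the neighbour on the opposite strand, and 7 of these 14 but 0 of the 6 others had the excess. Couples whose ends are both members count at each end, so these are not all separate sites. Both ends of a couple on chromosome 1 (152076815 to 152077325 and 152078320 to 152078591) are among the 7. Both touching pieces on the X (89499944 to 89500000 and 89500001 to 89500407) are among the 6. The split by orientation was looked at after the values were seen and has no test.

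The subfamily of the nearest listed LTR varied. For 282 members it was IAPLTR2_Mm itself, and their Neuro2A median was 71.9%, with 80 (28.4%, interval 23.2 to 34.0) higher in ES cells by 20 points or more. With an IAPLTR2a nearest (150 members) the median was 75.7% and the share 16.7% (interval 11.1 to 23.6), against 14.9% of all loci. With IAPLTR1_Mm, IAPLTR1a_Mm or IAPLTR2b nearest the shares were 22, 24 and 21%, near the 23.2% of all members. Consecutive members under 100 kb apart, 51 couples in all, resembled each other in ES (Spearman's rho 0.34), in Neuro2A (0.382) and in the difference (0.425). For the 272 couples at 100 kb to 1 Mb these were 0.005, 0.189 and 0.255. For the 613 couples over 1 Mb apart they were -0.014, 0.07 and 0.125. The coefficients describe couples that share libraries and, in part, loci.

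The 19 members on the Y and on unplaced sequence had medians of 80% in ES and 78.8% in Neuro2A cells, with a Neuro2A SD of 11.6. Of these, 2 were higher in ES cells by 20 points or more (10.5%, interval 1.30 to 33.1). That interval includes the 14.9% of all loci.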
